A study of Mus musculus with 16 samples.

Results

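Ceruloplasmin (Cp) and 9 other genes that move, store and sense iron were followed through the dorsal raphe nucleus (DRN) of mice after chronic social stress and a single dose of dexamethasone (DEX). The 10 members were chosen by gene symbol, with earlier results of these data known, from the 14504 genes of the deposited table, and all 10 were listed there. Cp was chosen from its level in active coping against control mice under saline, so that contrast is given below as a description, with no test. The comparisons of DEX with saline in control mice and in active coping mice, like every other comparison that uses these saline libraries, share them with that contrast, so what they show for Cp is not independent of the choice either.

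The samples were DRN tissue of adult male C57BL/6 mice, sequenced as polyadenylated RNA, 1 library a mouse by the study's methods. Control mice were unstressed, and the others went through 30 days of chronic social defeat stress by CD1 males and were then classed by behavior as having a passive (PS) or an active (AS) coping strategy. Each phenotype received saline or 2 mg/kg DEX, a synthetic glucocorticoid, 6 h before the tissue was taken. There were 3 control saline, 3 control DEX, 2 PS saline, 3 PS DEX, 3 AS saline and 2 AS DEX libraries. Groups this small can fail to overlap without any true difference, and how many of all genes did so was not counted. Single libraries are named as in the labels, with con for control, dep1 for PS, dep2 for AS, sal for saline and the number of the sample. PS and AS were split on behavior, so strategy was not assigned by the experimenter. Values are normalized counts, that is, reads per gene divided by a library's size factor. The tissue is a punch that holds many cell types, so in every result below fewer cells of a type and less RNA per cell cannot be told apart.

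Iron enters most brain cells when transferrin binds its receptor and is taken into endosomes, from which a divalent metal transporter carries it into the cytosol. Excess iron is held in ferritin, and ferroportin is the exporter. The exported ferrous iron is oxidized by multicopper ferroxidases, of which ceruloplasmin is made in the brain mainly by astrocytes, where much of it is anchored to the membrane, and hephaestin is a membrane-bound relative. When iron is scarce, iron regulatory proteins bind hairpins in messenger RNA called iron-responsive elements, which blocks translation when the hairpin lies in the 5′ UTR and protects the message when it lies in the 3′ UTR.

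A search of the UTRs found the letters of that element in 4 of the 10 members, and these sites are shown because, by what is known of the element, they divide the members into messages controlled at translation (Fth1, Ftl1 and Slc40a1) and one controlled through its stability (Tfrc). The search asked for a C, 5 bases, the loop CAGTG followed by A, C or T, and 5 bases that pair with the first 5, with G to T pairs allowed, in the GENCODE vM21 coding transcripts (GRCm38). Capitals mark the single C and the 6 loop bases, and each site is shown with 6 bases on either side.
Fth1 5′ UTR, chr19:9982732-9982760, plus strand: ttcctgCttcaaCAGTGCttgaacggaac
Ftl1 5′ UTR, chr7:45459779-45459807, minus strand: gtcttgCttcaaCAGTGTttgaacggaac
Slc40a1 5′ UTR, chr1:45925465-45925493, minus strand: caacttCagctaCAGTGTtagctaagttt
Tfrc 3′ UTR, chr16:32631219-32631247, plus strand: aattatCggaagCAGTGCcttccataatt
Tfrc 3′ UTR, chr16:32631598-32631626, plus strand: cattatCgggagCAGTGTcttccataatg
Tfrc 3′ UTR, chr16:32631663-32631691, plus strand: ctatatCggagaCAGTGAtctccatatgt
Tfrc 3′ UTR, chr16:32631710-32631738, plus strand: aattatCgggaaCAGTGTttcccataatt

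The ferritin sites of Fth1 and Ftl1 had the same 8 bases before the loop and the same 11 after it, and Tfrc held 4 elements in a single 3′ UTR. The sites lay in 4 of 5 annotated coding transcripts of Fth1, 1 of 2 of Ftl1, 1 of 4 of Slc40a1 and 1 of 3 of Tfrc. The count of a gene may thus include messages without the element. Of all coding genes with an annotated 5′ UTR, 0.11% held the same letters there, and of those with a 3′ UTR, 0.475% did. The match is a description of letters, and its absence from Slc11a2 or other members says only that this strict form was not found in these transcripts.

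The libraries held 38207157 to 62447298 reads in genes, and the lowest member value in any library rested on 131 reads. Fkbp5, a co-chaperone that the glucocorticoid receptor induces, stood at 5578 to 6958 normalized counts after DEX and at 1241 to 1536 after saline, so each of the 16 libraries matched its treatment label. Tph2, the enzyme that makes serotonin in raphe neurons, lay between 91764 and 182191, and all 8 serotonin neuron markers searched were listed. The study had left out DRN libraries with low Tph2, so this range follows a filter on Tph2 itself. Annotated exons on the opposite strand overlapped those of Cp by 108 bases (Hps3), of Heph by 29 (Hsf3), of Slc11a2 by 402 (Gm5475) and of Ftl1 by 355 (Gm10252), and reads there cannot be told apart if counting ignored strand. Ftl1 also shared 109 of its 1340 exonic bases with Gm22133, a miRNA gene on the same strand that is not among those listed. Reads there may have been left uncounted. The members differed widely in level. Per kilobase of annotated exon, the median over the 16 libraries ran from 47.2 normalized counts for Slc40a1 and 58.8 for Cp, through 79.7 for Heph, 96.8 for Trf and 130.4 for Hmox1, to 448 for Ireb2, 486 for Slc11a2, 1243 for Tfrc, 4295 for Ftl1 and 10273 for Fth1.

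**Figure D1:**
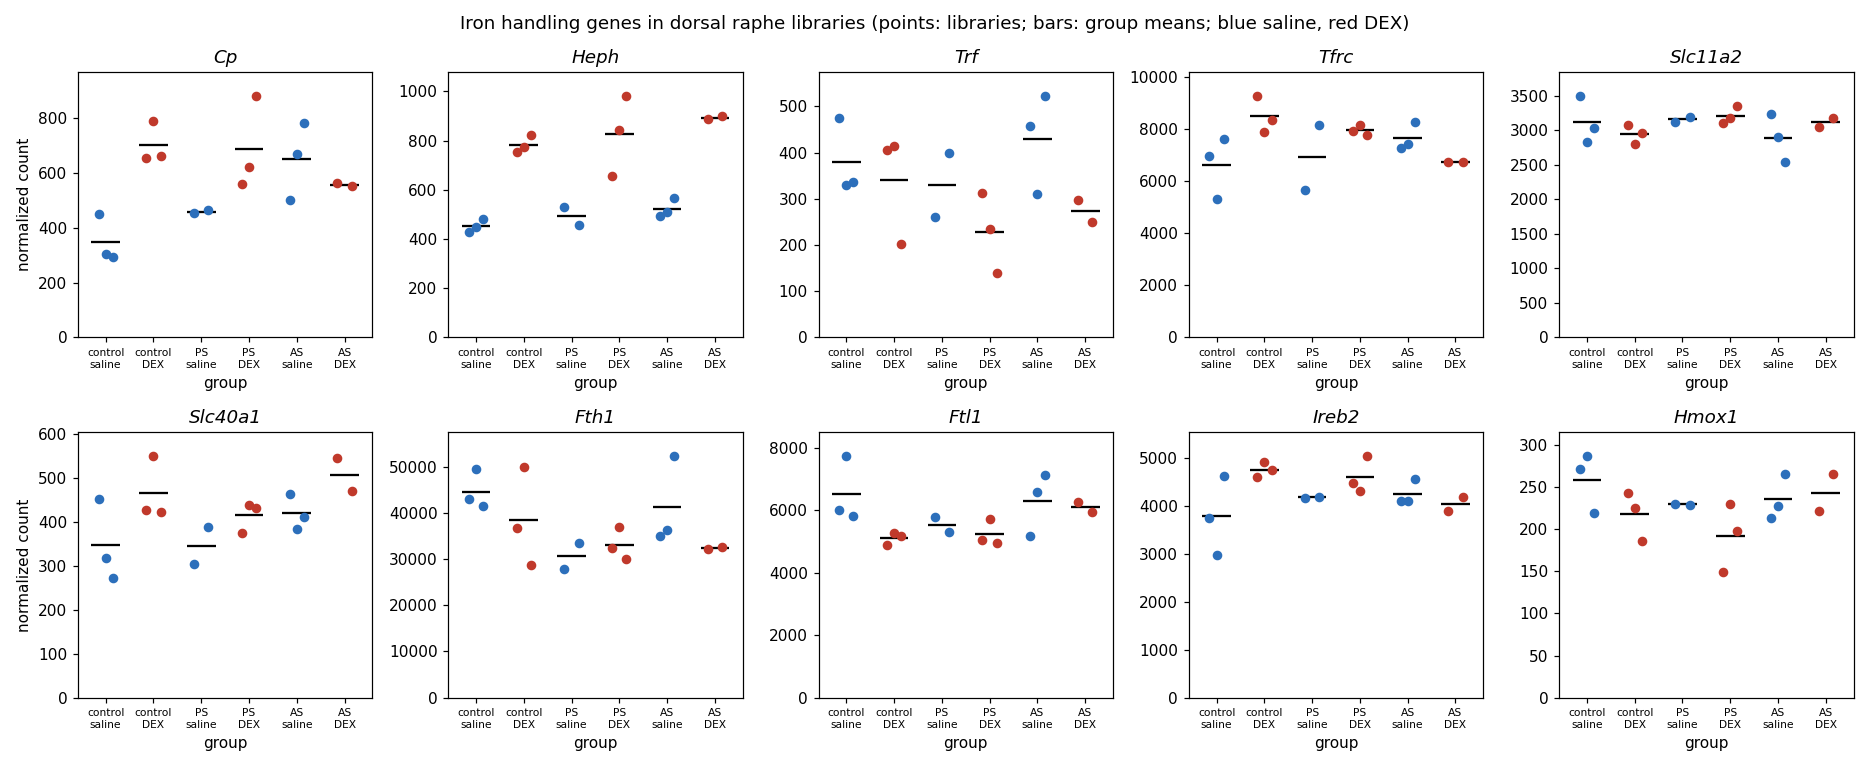
Normalized counts of the 10 members (vertical axis, linear from 0) in each library of the 6 groups (horizontal axis), with bars at the group means. All 8 DEX libraries lie above all 8 saline libraries for Heph. For Cp the 3 AS saline libraries lie at 502 to 783. Their height above the control saline libraries served the choice of Cp and is shown as a description only.

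Of the ferroxidases, Heph rose after DEX in all 3 phenotypes. Heph (hephaestin, chrX:96455359-96574485 on the plus strand, GRCm38) stood at 429, 449 and 481 normalized counts in the control saline libraries and at 755, 775 and 822 in the control DEX libraries. In PS mice it was 457 and 530 under saline and 656, 843 and 982 under DEX, and in AS mice it was 493, 511 and 565 under saline and 888 and 899 under DEX. Every DEX library lay above every saline library, which held for 1.37% of all genes, and among the members for Heph alone. In controls the log2 difference came to 0.79 (SE 0.14, adjusted p 0.0133), in PS mice to 0.73 (SE 0.16, adjusted p 0.0671) and in AS mice to 0.77 (SE 0.16, adjusted p 0.0469) in limma with Benjamini-Hochberg adjustment over all 14504 genes, called below an adjusted p of 0.1. Averaged over the 3 phenotypes it was 0.76, a 1.70-fold difference (SE 0.09, adjusted p 0.000111).

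The size of the Heph response did not differ detectably between phenotypes. The DEX effect in PS minus that in controls was -0.06 (95% interval -0.51 to 0.39), the effect in AS minus that in controls was -0.02 (-0.46 to 0.43), and the effect in AS minus that in PS was 0.05 (-0.43 to 0.52), on the log2 scale, so differences of up to about these bounds remain possible. Stress alone left Heph close to control, with a log2 difference of 0.12 for PS (adjusted p 0.751) and, as a description, 0.21 for AS under saline. The averaged effect and the effect in controls passed in every alternative run, including all 16 fits with 1 library left out, at log2 differences of 0.72 to 0.82 and 0.75 to 0.84.
The calls within PS and AS were less firm. The PS call was lost without con_dex_101, con_dex_116, con_dex_122, dep1_dex_34, dep1_dex_64, dep1_sal_62, dep1_sal_68, dep2_dex_38, dep2_dex_42 or dep2_sal_14, at adjusted p values from 0.101 to 0.841 and log2 differences from 0.59 to 0.83. The AS call was lost without dep2_dex_38, dep2_dex_42, dep2_sal_14 or dep2_sal_8, at adjusted p values from 0.118 to 0.567 and log2 differences from 0.73 to 0.78.

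Cp, the secreted and membrane-anchored ferroxidase, did not follow Heph in AS mice. Cp (chr3:19957054-20009145 on the plus strand) stood at 294, 303 and 451 normalized counts in the control saline libraries and at 654, 664 and 789.8 in the control DEX libraries. In PS mice it was 454 and 466 under saline and 562, 623 and 882 under DEX. In AS mice it was already 502, 669 and 783 under saline, and was 563 and 554 under DEX, inside the saline range. The 6 group means were ordered control saline (349), PS saline (459.9), AS DEX (558), AS saline (651), PS DEX (689) and control DEX (703). Control saline did not overlap with PS saline, nor PS saline with AS DEX, and the upper 4 groups overlapped each with the next.

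In controls Cp was 2.04-fold higher after DEX (log2 difference 1.03, SE 0.21, adjusted p 0.0347), with the limit stated at the outset that the control saline libraries also served the choice of Cp. The call was lost without con_dex_101, con_dex_116, con_dex_122 or con_sal_104, at adjusted p values of 0.105 to 0.154 and log2 differences of 0.94 to 1.08, and was lost, at an adjusted p of 0.159, when the fit held only the 2 groups compared. In PS mice the log2 difference was 0.55 (95% interval 0.05 to 1.06, unadjusted p 0.0324, adjusted p 0.927) and was not called, although all 3 DEX libraries lay above both saline libraries. The paper gives Cp as a stress gene of AS and not of PS mice under saline. The PS saline libraries may thus bear on the choice too. In AS mice the log2 difference was -0.20 (95% interval -0.70 to 0.30, adjusted p 0.727), with the same limit, because the AS saline libraries also served the choice. The average over phenotypes, 0.46 (SE 0.13, adjusted p 0.0839), was called, but lost its call without any 1 of 13 libraries, namely all but con_sal_102, dep1_dex_6 and dep2_sal_40, at adjusted p values of 0.114 to 0.227.

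The DEX effect on Cp in AS minus that in PS mice was -0.75 on the log2 scale, and in AS minus that in controls it was -1.23. Both are given as descriptions, with no test, because the high AS saline libraries from which Cp was chosen are subtracted in each. Under DEX, where no library was shared with the choice, AS minus control was -0.33 (95% interval -0.83 to 0.17, adjusted p 0.99) and PS minus control was -0.05 (95% interval -0.50 to 0.40, adjusted p 1).

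**Figure D2:**
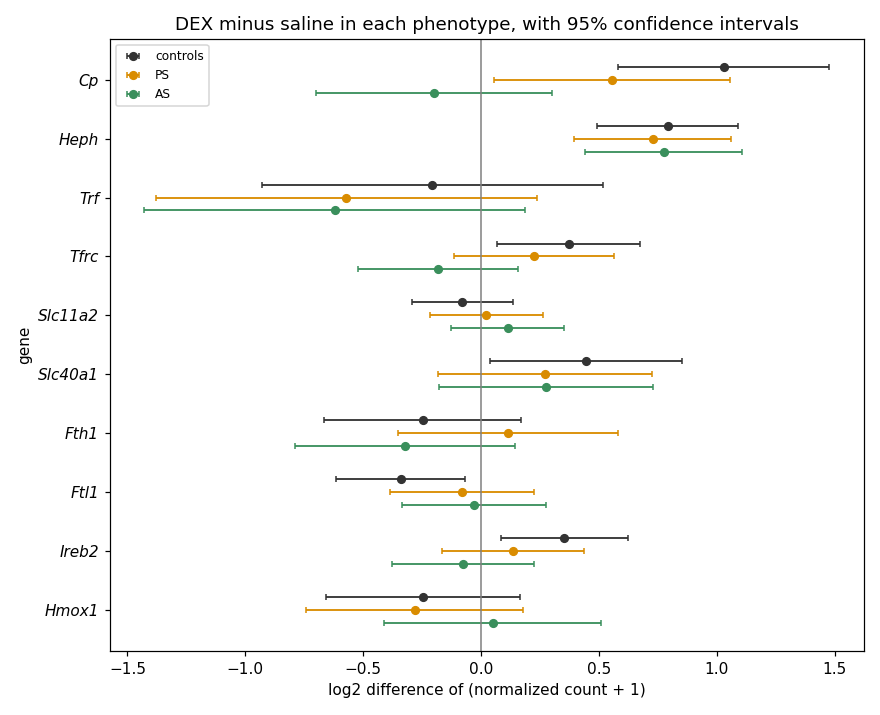
Log2 difference of DEX minus saline (horizontal axis) for each member (vertical axis) in controls, PS and AS, with 95% confidence intervals of the limma fit. Heph lies at 0.73 to 0.79 in all 3 phenotypes, and Cp lies at 1.03 in controls, 0.55 in PS and -0.20 in AS. For Cp the control and AS values are not independent of its choice, which used the saline libraries of these phenotypes. The PS saline libraries may bear on that choice too.

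Transferrin and its receptor, the uptake route, were not called in any comparison. Trf (transferrin, chr9:103204001-103230444 on the minus strand) ranged from 260 to 523 normalized counts in the 8 saline libraries, with a median of 368, and from 138 to 415 in the 8 DEX libraries, with a median of 274. The averaged log2 difference was -0.47 (SE 0.21, unadjusted p 0.0434, adjusted p 0.339). Trf shares 2108 of its 3320 annotated exonic bases with Gm20425 on the same strand, a gene that is not among those listed, so reads in the shared exons may have been left uncounted and the level of Trf is uncertain.

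Trf followed the markers of myelinating oligodendrocytes, the cells that make most transferrin in the brain. Across the 16 libraries its log2 level and the mean of the 12 myelin markers had a Pearson r of 0.867, which was 0.917 within the 8 saline and 0.85 within the 8 DEX libraries, and its closest genes among those with a mean of at least 100 were Mag (r 0.924), Mog (0.889) and Klk6 (0.889). These are descriptions over libraries that share treatment groups and tissue composition. Of the 12 markers, 6 were called lower after DEX in the averaged contrast and 0 higher, where 4.31% of all genes were called. Their median log2 difference was -0.40, and their summed level was 139285 to 228460 under saline and 135986 to 191303 under DEX. Trf also tracked mural markers (r 0.804) and endothelial markers (r 0.731). The part of these cells in the Trf values was not tested.

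**Figure D3:**
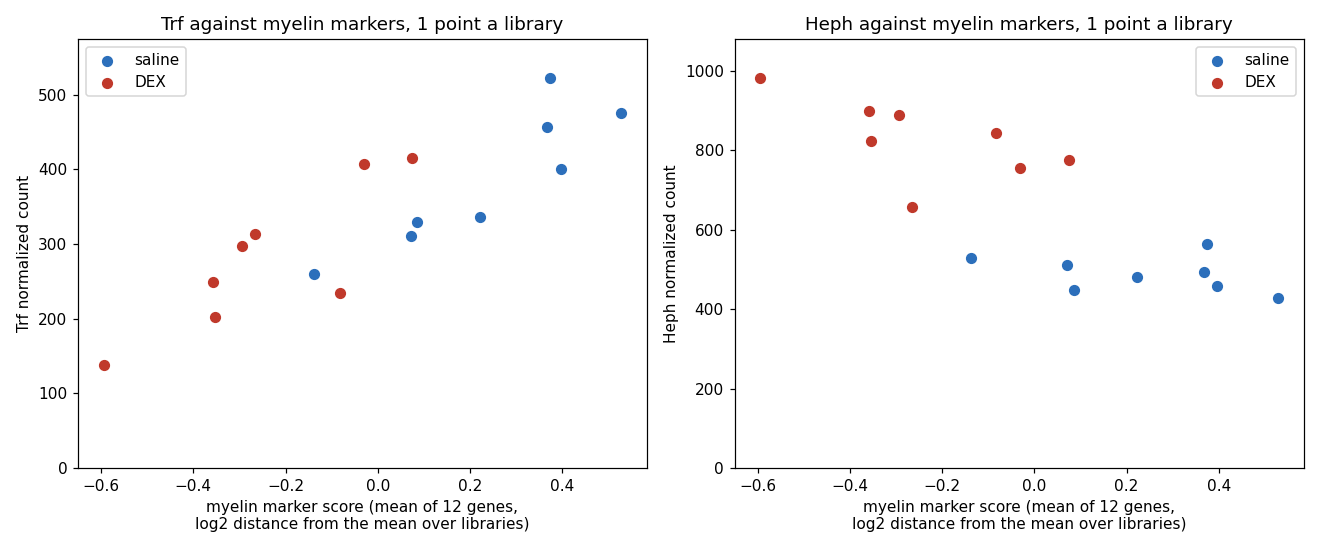
Normalized counts of Trf (left) and Heph (right) on the vertical axis against the mean log2 distance of 12 myelin markers from their average over libraries (horizontal axis), 1 point a library, with saline in blue and DEX in red. Trf rises with the score within either treatment, whereas the Heph points form a saline band at 429 to 565 and a DEX band at 656 to 982.

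Heph had r of -0.374 within the saline and -0.558 within the DEX libraries with the myelin markers, and r of 0.71 and 0.803 with the astrocyte markers. With the markers of ciliated ependymal cells, which line the ventricles, its r was 0.718 and 0.8, and with those of the choroid plexus 0.485 and 0.714. Of the 9 astrocyte markers, 2 were called higher and 0 lower after DEX, with summed levels of 124307 to 156850 under saline and 136448 to 148803 under DEX. Cp and the astrocyte markers had r of 0.619 within saline and 0.419 within DEX libraries, and Cp and the ependymal markers 0.508 and 0.561. Within the saline libraries Cp also had r of 0.758 with the mural and 0.709 with the endothelial markers, which were -0.205 and -0.589 within the DEX libraries. With the markers of oligodendrocyte precursors its r was 0.636 within saline and -0.907 within DEX libraries. In the averaged contrast 2 of the 6 precursor markers were called higher and 0 lower. Of the 8 mural and the 9 measured endothelial markers, 1 each was called lower and 0 higher. The 9 ependymal markers, none of them called after DEX, summed to 3546 to 12200 under saline and 1318 to 20998 under DEX. Both of these DEX extremes were PS libraries, dep1_dex_6 at 1318 and dep1_dex_64 at 20998, which also held the lowest and highest PS DEX values of Heph (656 and 982) and of Cp (562 and 882). Under saline the ependymal markers summed to 3546 to 6770 in control and 4507 to 12200 in AS libraries. The mural markers summed to 5956 to 8365 and 7779 to 9812 in the same groups. For a cilium signal of AS mice under saline, the paper proposes differences in the share or activity of ependymal cells. The part of any of these cell types in the ferroxidase values was not tested. For the choroid plexus, another source of ceruloplasmin and transferrin, 6 of 10 markers were listed, with a summed level of 1166 to 3274 under saline and 2275 to 3170 under DEX, and 0 of the 6 were called.

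Tfrc (transferrin receptor, chr16:32608920-32632794 on the plus strand) stood at 5307, 6975 and 7609 in the control saline libraries and at 7878, 8350 and 9259 in the control DEX libraries. In PS mice it was 5660 and 8164 under saline and 7762, 7917 and 8142 under DEX, and in AS mice it was 7270, 7409 and 8279 under saline and 6718 and 6736 under DEX. Every control DEX library thus lay above, and every AS DEX library below, the saline libraries of its phenotype. The share of all genes that separated these groups was not counted. The log2 differences were not called, at 0.37 for controls (unadjusted p 0.02, adjusted p 0.319), 0.22 for PS (adjusted p 1) and -0.18 for AS mice (adjusted p 0.641). Slc11a2 (the divalent metal transporter, chr15:100387898-100425072 on the minus strand) had the narrowest range of the members relative to its level, 2542 to 3495 over all 16 libraries, with an averaged log2 difference of 0.02 (95% interval -0.12 to 0.15, adjusted p 0.909).

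Slc40a1 (ferroportin, the iron exporter, chr1:45908068-45926523 on the minus strand) ranged from 273 to 463 with a median of 386 in the saline libraries and from 375 to 549 with a median of 435 in the DEX libraries. Its averaged log2 difference was 0.33 (SE 0.12, unadjusted p 0.0144, adjusted p 0.208) and was not called. With library weights, or without con_sal_102, it was called, at log2 differences of 0.32 and 0.40 and adjusted p values of 0.0699 and 0.0563. The 3 exporter-side genes Slc40a1, Heph and Cp varied together over the 16 libraries, with r of 0.651 for Cp and Slc40a1, 0.657 for Cp and Heph and 0.564 for Heph and Slc40a1, as a description over libraries that share the treatment. Slc40a1 had r of 0.942 within saline and 0.37 within DEX libraries with the mural markers. With the endothelial markers its r was 0.852 and 0.407, and with those of microglia 0.196 and 0.858. The part of these cells in the Slc40a1 values was not tested.

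The ferritin subunits were not called in any comparison. Fth1 (the heavy subunit, which carries the ferroxidase site of ferritin, chr19:9980598-9985098 on the plus strand) was 41473, 42922 and 49466 in control saline and 27840.3 and 33419 in PS saline libraries, which did not overlap. This was its largest difference among the stress contrasts, at a log2 difference of -0.54 for PS minus control under saline (SE 0.22, unadjusted p 0.0252, adjusted p 0.571). How many of all genes separated control saline from PS saline libraries was not counted. The averaged DEX effect on Fth1 was -0.15 (95% interval -0.41 to 0.11, adjusted p 0.574). With the markers of several cell types Fth1 had a positive r, of 0.822 within saline and 0.482 within DEX libraries for red blood cells, 0.401 and 0.854 for myelinating oligodendrocytes and 0.706 and 0.392 for microglia. Of the 6 red blood cell markers 4 were listed, and their summed level was 989 to 2034 in control saline against 645 to 684 in PS saline libraries. The summed myelin markers overlapped between these groups, at 147593 to 228460 and 139285 to 202924. The part of these cells in the Fth1 values was not tested.

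Ftl1 (the light subunit, chr7:45457944-45459884 on the minus strand) was 5824, 6000 and 7734 in control saline and 4884, 5178 and 5264 in control DEX libraries, which did not overlap, with a log2 difference of -0.34 (SE 0.13, unadjusted p 0.0184, adjusted p 0.317). How many of all genes separated control saline from control DEX libraries was not counted. In PS and AS the DEX effect on Ftl1 was -0.08 (adjusted p 1) and -0.03 (adjusted p 0.942). Ftl1 had r of 0.587 within saline and 0.6 within DEX libraries with the microglia markers, 0.737 and -0.14 with the serotonin neuron markers and -0.38 and 0.674 with those of oligodendrocyte precursors. Of the 10 microglia markers 3 were called lower and 0 higher after DEX in the averaged contrast, where 4.31% of all genes were called. Their summed levels were 9102 to 14229 under saline and 8251 to 9917 under DEX. The part of these cells in the Ftl1 values was not tested. Annotation also holds 5 Fth and 3 Ftl pseudogenes, so some ferritin reads may have been assigned elsewhere.

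Ireb2 (iron regulatory protein 2, which binds the elements shown above, chr9:54863789-54912530 on the plus strand) was 2982, 3743 and 4612 in control saline and 4599, 4745 and 4908 in control DEX libraries, overlapping by 1 library. The log2 difference was 0.35 (SE 0.13, unadjusted p 0.0142, adjusted p 0.298), and without con_sal_114 it was 0.51 and called (adjusted p 0.0506). In PS it was 0.14 and in AS -0.08, neither called. Ireb2 and Tfrc varied together over the 16 libraries (r 0.751), and Ireb2 and Ftl1 in opposite directions (r -0.684), as descriptions. Hmox1 (heme oxygenase 1, which frees iron from heme, chr8:75093621-75100589 on the plus strand) ranged from 213 to 287 under saline and from 149 to 266 under DEX, with an averaged log2 difference of -0.16 (95% interval -0.42 to 0.10, adjusted p 0.553).

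Counted over the members, DEX called 2 of 10 in controls (Cp and Heph), where 1.26% of all genes were called, 1 of 10 in PS (Heph) against 0.703%, 1 of 10 in AS (Heph) against 0.689%, and 2 of 10 in the average (Cp and Heph) against 4.31%. Leaving Cp out for the reason given, the count was 1 of 9 in each of these 4 comparisons. All the calls were increases. The median log2 difference over the 10 members was 0.14 for controls, 0.12 for PS and -0.05 for AS mice, beside 0.00, 0.00 and -0.01 over all genes.

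Stress called 0 of the 10 members in limma, either for PS against control under saline, where 0% of all genes were called, for AS against PS under saline (0%), for PS against control under DEX (0%), for AS against PS under DEX (0%) or for AS against control under DEX (0.00689%). At an unadjusted p under 0.05 these counts were 1 (Fth1), 0, 0, 0 and 0, in the order given, and edgeR and DESeq2 called 0 of the 10 in each. Over all genes DESeq2, the tool of the study, called 4, 1, 0, 5 and 12 genes, in the same order. AS against control under saline, the contrast that served the choice, called 0% of all genes in limma and 11 genes in DESeq2. There Cp was 651 ± 141 (SD, n = 3) in AS and 349 ± 87.9 (SD, n = 3) in control mice, and the other 9 members differed by between -0.14 (Fth1) and 0.30 (Slc40a1) on the log2 scale. The 3 contrasts between DEX effects (PS against controls, AS against controls and AS against PS) called 0% of all genes each in limma and therefore 0 members. edgeR and DESeq2 also called 0 members in each, while over all genes DESeq2 called 0, 0 and 1, in the order given. Of the 9 members other than Cp, 2 had an unadjusted p under 0.05 in AS against controls, Tfrc (-0.55, p 0.0204) and Ireb2 (-0.43, p 0.0396), both with an adjusted p of 0.941.

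**Figure D4:**
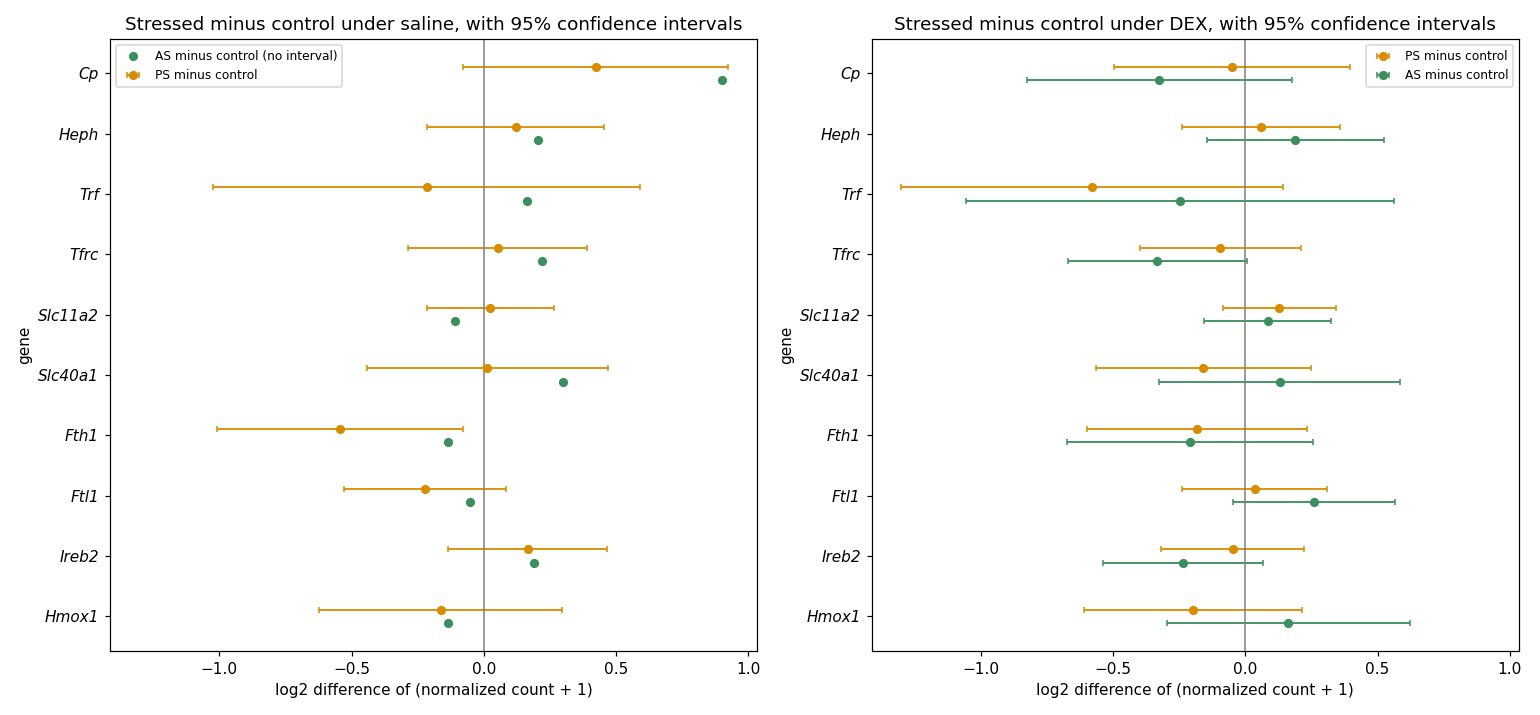
Log2 difference of PS and AS minus control (horizontal axis) for each member (vertical axis) under saline (left) and under DEX (right), with 95% confidence intervals except for AS under saline, the contrast from which Cp was chosen. Cp lies at 0.42 in PS and 0.90 in AS under saline and at -0.05 and -0.33 under DEX.

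Beyond the members, 61 of 80 listed genes of iron uptake, storage, export and sensing, heme synthesis, heme breakdown and transport, mitochondrial iron and iron-sulfur assembly, copper handling and antioxidant defence were measured. The averaged DEX effect called 2 of the 61 higher and 0 lower, beside 403 higher and 222 lower of all 14504 genes (4.31% called). The count for the lists was thus near the share over all genes. Slc39a14, a zinc and manganese transporter that also takes up iron not bound to transferrin, ranged from 1292 to 1871 in the saline and from 1936 to 2339 in the DEX libraries, without overlap, and rose by a log2 difference of 0.39 (SE 0.08, adjusted p 0.0177). The call held in every alternative, at adjusted p values up to 0.0676. Atp7b, the copper pump that loads copper onto ceruloplasmin in the liver, ranged from 267 to 445 under saline and from 434 to 691 under DEX, and rose by 0.47 (SE 0.12, adjusted p 0.0549). Its call was lost without con_dex_122, dep1_dex_64, dep1_sal_62, dep1_sal_68, dep2_dex_42 or dep2_sal_14, at adjusted p values of 0.102 to 0.227 and log2 differences of 0.41 to 0.47.

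In controls alone 1 of the 61 was called, Gclm, the modifier subunit of the enzyme that starts glutathione synthesis, at 4352, 4375 and 5001 under saline and 5523, 5618 and 6232 under DEX (log2 difference 0.34, SE 0.08, adjusted p 0.075). That call was lost in 16 of 27 alternatives, among them the fits without any 1 library other than con_sal_114, dep1_dex_64 and dep2_sal_40, at adjusted p values up to 0.485. In PS and in AS mice 0 of the 61 were called. Over all genes 1.26% were called in controls, 0.703% in PS and 0.689% in AS mice.

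The lists read as follows in the averaged DEX effect, where the median over all genes was 0.00 and 4.31% of all genes were called. Iron uptake had 1 of 6 measured genes called (Slc39a14), and Slc22a17, a lipocalin receptor, stood at -0.09 (adjusted p 0.634). Iron storage had 0 of 3 called, with the iron chaperones Pcbp1 at -0.18 (adjusted p 0.271) and Pcbp2 at -0.08 (adjusted p 0.577). Export and sensing had 0 of 3, with Aco1, iron regulatory protein 1, at -0.11 (adjusted p 0.358) and Neo1, a co-receptor for hepcidin control, at 0.10 (adjusted p 0.571). None of these moved beyond the threshold besides Slc39a14.

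Heme synthesis had 0 of 8 called, with Alad, an enzyme of its early steps, at -0.26 (adjusted p 0.207). Heme breakdown and transport had 0 of 6, with the heme transporter Slc48a1 at -0.21 (adjusted p 0.177) and Bach1, the repressor of Hmox1, at 0.25 (adjusted p 0.303). Mitochondrial iron had 0 of 16, with the iron-sulfur factors Iba57 at -0.29 (adjusted p 0.16) and Nfu1 at -0.23 (adjusted p 0.286). Copper handling had 1 of 9 called (Atp7b), and Commd1, a copper trafficking factor, stood at -0.29 (adjusted p 0.338). The antioxidant genes had 0 of 10 called in the average, with Gclm at 0.17 (adjusted p 0.105) and the cystine transporter Slc7a11 at -0.37 (adjusted p 0.18). Over all 61 genes 17 had a positive averaged difference and the median was -0.08.

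**Figure D5:**
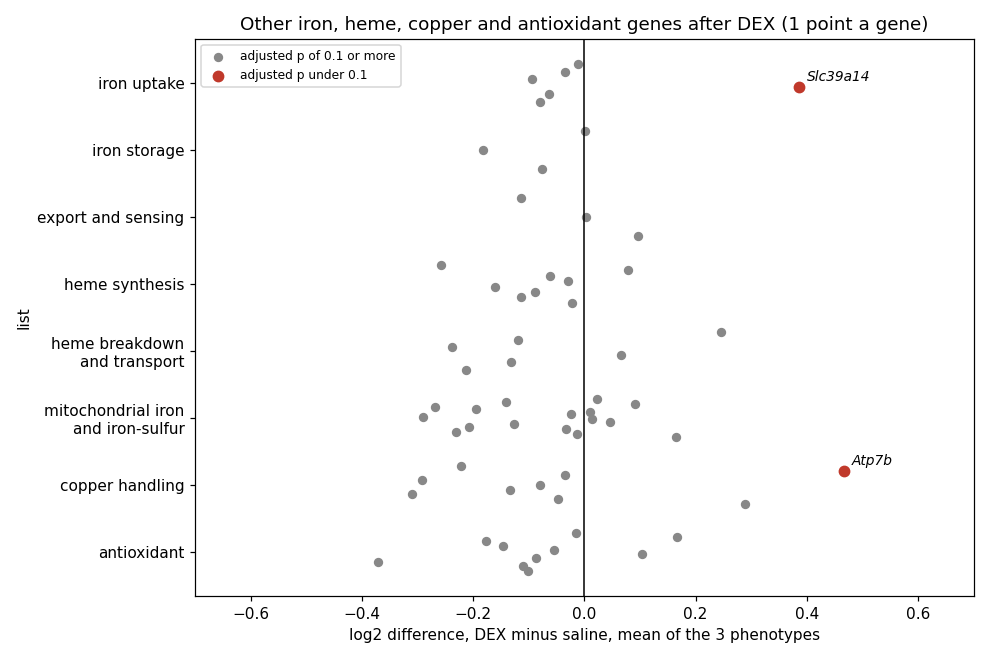
Averaged log2 difference of DEX minus saline (horizontal axis) of the 61 measured genes of 8 lists (vertical axis), 1 point a gene, with the genes called at an adjusted p under 0.1 in red. Slc39a14 at 0.39 and Atp7b at 0.47 lie apart to the right of the other genes.

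The genes whose pattern over the 16 libraries was most like that of Cp were Zfp52 (r 0.919), Trp53inp1 (0.879) and Ccn1 (0.861). Those most like Heph were Nxf3 (0.951), the metallothionein Mt2 (0.950) and Fam107a (0.949), in libraries that fall into a DEX and a saline cluster. For Tfrc they were Chm (0.884), Arih1 (0.862) and A530058N18Rik (0.854), for Slc11a2 Gm10557 (0.911), Dennd6b (0.893) and Kif13b (0.888), and for Slc40a1 Adgrl4 (0.871), Snx33 (0.867) and Gpd1 (0.794). The ferritins stood nearest to Adi1 (0.950), Slc35g2 (0.942) and Gm15710 (0.942) for Fth1, and to Itm2c (0.938), Apoe (0.925) and Cuta (0.923) for Ftl1. Ireb2 stood nearest to Rc3h2 (0.955), Ythdf3 (0.953) and Kdm7a (0.948), and Hmox1, with the weakest likeness of the members, to Rtn2 (0.779), Trpt1 (0.776) and Snrnp35 (0.765).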

How the data were processed

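RNA-seq of 16 DRN libraries was analysed from the deposited table of normalized counts. Per the labels and the study's methods, the authors trimmed reads with fastp 0.20.1, aligned them with HISAT2 2.2.1 to mm10 (GRCm38), counted genes with featureCounts (Subread 2.0, GENCODE vM22) and divided each library by its DESeq2 1.36.0 size factor, so the deposited values are a scaled read signal. Whether counting used strand is not given in the sources used here. Libraries with low Tph2 had been left out by the study, all of them from DEX-treated PS and AS mice. The paper counts more DRN libraries than the 16 used here, and it does not say why the others are absent. The deposited comparison tables (fold changes, p-values, mean levels, positions) were not used. Dividing by the step of 1 read gave whole reads for 100% of values within 0.01, at 38207157 to 62447298 reads a library.

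The main test was limma 3.58.1 (R 4.3.3) on log2(normalized count + 1), with 6 group means, a mean-variance trend, 10 residual degrees of freedom and Benjamini-Hochberg adjustment over all 14504 genes within each of 13 contrasts, called at an adjusted p under 0.1. A fold change is on that scale. No filter on low values was used, and 973 genes had under 10 reads in at least 1 library. edgeR 4.0.16 and DESeq2 1.42.0 on the recovered reads, other pseudocounts, filters and scalings, and leaving out each library were alternatives. The scripts were tested on simulated data. The members and lists were chosen with earlier results of these data known. Beside the members, the text names list genes called in any contrast, filled up to 2 a list by smallest p in the averaged DEX effect, and the 3 genes most like each member. 1 item that this rule names is not reported here. Positions, lengths and UTR sites come from GENCODE vM21.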

Additional observations from a re-analysis of the deposited data

Results flagged for a closer look

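The Tfrc libraries of controls and AS mice lay on opposite sides of their saline libraries after DEX, with neither difference called: all 3 control DEX libraries lay above the control saline libraries, and both AS DEX libraries lay below the AS saline libraries. The log2 differences were 0.37 in controls (adjusted p 0.319) and -0.18 in AS mice (95% interval -0.52 to 0.16, adjusted p 0.641). The DEX effect in AS minus that in controls was -0.55 on the log2 scale (95% interval -1.01 to -0.10, limma, unadjusted p 0.0204), which did not pass adjustment over all genes (adjusted p 0.941). The AS DEX group holds 2 libraries, and the value ranged from -0.66 to -0.40 over the alternatives. How many of all genes lay on opposite sides in this way was not counted.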

How the results depend on the processing

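Of the counts of members called, those for DEX fell from 2 to 1 in controls, and from 1 to 0 in PS and in AS, when a fit held only the groups compared. With 1 library left out, they ranged from 1 to 3 in controls, 0 to 1 in PS, 0 to 1 in AS and 1 to 3 in the average, where the counts of 3 came without con_sal_114 (Ireb2 added) and without con_sal_102 (Slc40a1 added). DESeq2 raised the count for AS against control under saline from 0 to 1 (Cp), in the contrast from which Cp was chosen. Library weights raised the averaged count from 2 to 3 (Slc40a1). The counts for the other comparisons did not change. Of the single-gene values under all alternatives, 3503 kept their side of the threshold or stayed within the spread, 56 lost a call, 3 gained one, 17 without a call moved by more than the spread between libraries, and 0 called values changed sign. In this tally AS against control under saline, and for Cp the DEX effect in AS against controls, were compared by size alone. The DESeq2 call of Cp is therefore not among the gains. With 2 or 3 libraries a group, differences as small as those of most members cannot be resolved. When a group of 2 lost a library, the lone one was assumed to vary like the other groups. No paired analysis was possible because the numbers in the labels differ between groups.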
